A study of Mus musculus with 17 samples.

Results

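Mitosis and spindle genes are a listed set of 54 genes whose products carry a cell from mitotic entry to the separation of its daughters. They were taken by name, with no measured value in the rule, from a mouse series of bulk RNA sequencing. The members, and the other lists used below, were chosen with earlier results of these data known. All 54 were found in the 8 intestinal libraries (33840 genes per file) and in the 9 libraries labelled liver (24594 identifiers per file). The series has 17 libraries in 7 groups. All mice are labelled wild type. The intestinal groups are hepatectomy crypts, sham crypts, hepatectomy IEC and sham IEC from the small intestine, with 2 libraries each. Hepatectomy is the removal of liver tissue and sham is the control operation, crypts are the epithelial pits that hold the stem and dividing cells, and IEC is the usual abbreviation for intestinal epithelial cells. The remaining groups are labelled liver with DSS treatment at day 0, day 10 and day 20, with 3 libraries each, and the day 0 libraries carry the DSS label as well. The labels give no age, no sex, no extent of resection and no time after surgery, and whether each library is a separate animal is not stated. The p-values therefore speak of the spread among these libraries alone, and that spread may be technical.

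As background, entry into mitosis is driven by the kinase Cdk1 bound to cyclin B, with Polo and Aurora kinases building the spindle and the kinetochores coupling chromosomes to microtubules. The spindle checkpoint holds Cdc20 inactive until every chromosome is attached, after which the anaphase-promoting complex marks securin and cyclin B for destruction and the cell divides. Most of these genes are transcribed in a wave late in the cell cycle, under the DREAM and MuvB complexes and FoxM1, through promoter elements called CHR, and in the small intestine this takes place mainly in the transit-amplifying and stem cells of the crypt.

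The intestinal libraries held 26609721 to 43580054 counts each and those labelled liver 12742629 to 42669857, and the 54 genes held 0.105 to 0.454% of the counts in the intestinal libraries, 0.349 to 0.645% at day 0 and day 10, and 0.0151 to 0.0163% at day 20. The labels of the last 3 groups were set against defining markers. Summed hepatocyte markers (14 genes) lay between 1292 and 4254 CPM at day 0 and day 10 and between 155502 and 157384 CPM at day 20, and summed crypt stem cell markers (10 genes) lay between 3798 and 8463 CPM at day 0 and day 10 and between 147.6 and 170.2 CPM at day 20, so the content of the day 0 and day 10 libraries goes against the label liver and the days are given by label only. Within day 0, replicate 1 stood apart for some genes: 8 of the 54 (Ect2, Anln, Kif4, Kif11, Espl1, Ncapd2, Bub1 and Foxm1) were below 0.6 of the mean of the other replicates, as were 15% of all 16694 tested genes, while 39 of the 54 were above that mean. Day 10 replicate 3 was the shallowest library and stood apart in its markers, with summed Paneth markers of 6444 CPM against 85349 and 92043 CPM in the other day 10 libraries, goblet markers of 2178 CPM against 5395 and 6013 CPM, and enterocyte markers of 3921 CPM against 1425 and 1429.8 CPM. The sham and hepatectomy libraries carry separate ranges of running numbers in their file headers, and 29790 to 30467 genes had counts in hepatectomy libraries against 24425 to 26202 in sham libraries, so a difference in handling between the operations cannot be told apart from hepatectomy. Exons of 16 members overlap those of another annotated gene (Ccna2, Cdc25b, Cdc25c, Foxm1, Plk1, Cdc20, Ube2c, Cdca8, Knstrn, Kif4, Kif22, Nusap1, Kif20a, Prc1, Ncapd2 and Top2a) and 4 have a named pseudogene (Ccnb1, Ccnb2, Kif4 and Kif22). Whether reads were counted by strand is not stated. Counting by strand would not separate the overlaps of Foxm1, Ncapd2 and Top2a, which lie on the same strand, nor reads shared with a pseudogene. The counts of all these members are uncertain to that extent.

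The promoters show what many of these genes share outside their expression. RefSeq promoter windows (GRCm38.p6, 250 bases before to 50 bases after the RefSeq start) were matched for 44 of the 54 members. The CHR letters TTTGAA or TTCGAA, on either strand, were found for 34 of the 44 members (77.3%), against 5854 of all 27025 genes with a window (21.7%). CCAAT, the letters bound by NF-Y, on either strand, was found for 31 of the 44 (70.5%), against 41.1% of all genes with a window. Both motifs were found for 29 of the 44 (65.9%), against 8.61%. The promoters of the 5 members with the highest CPM in sham crypts among those with a CHR motif are shown as examples of both motifs, with these motifs in capitals on the strand of the gene; TTCAAA and ATTGG are the same motifs read from the other strand. A match is a run of letters and not a measured binding site.
Top2a (chr11:99024140-99024439, minus strand): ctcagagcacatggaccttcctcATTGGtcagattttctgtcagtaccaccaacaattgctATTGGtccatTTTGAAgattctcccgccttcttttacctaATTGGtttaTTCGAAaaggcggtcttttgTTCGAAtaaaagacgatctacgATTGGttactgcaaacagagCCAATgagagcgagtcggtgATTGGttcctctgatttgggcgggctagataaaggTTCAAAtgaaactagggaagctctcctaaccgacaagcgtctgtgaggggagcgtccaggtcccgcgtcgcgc
Cdc20 (chr4:118437294-118437593, minus strand): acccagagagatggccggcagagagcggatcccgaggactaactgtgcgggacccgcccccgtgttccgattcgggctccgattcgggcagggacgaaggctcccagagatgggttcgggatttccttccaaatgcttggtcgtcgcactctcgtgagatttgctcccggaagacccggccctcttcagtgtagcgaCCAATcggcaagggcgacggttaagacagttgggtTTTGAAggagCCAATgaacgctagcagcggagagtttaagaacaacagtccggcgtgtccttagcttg
Ube2c (chr2:164769679-164769978, plus strand): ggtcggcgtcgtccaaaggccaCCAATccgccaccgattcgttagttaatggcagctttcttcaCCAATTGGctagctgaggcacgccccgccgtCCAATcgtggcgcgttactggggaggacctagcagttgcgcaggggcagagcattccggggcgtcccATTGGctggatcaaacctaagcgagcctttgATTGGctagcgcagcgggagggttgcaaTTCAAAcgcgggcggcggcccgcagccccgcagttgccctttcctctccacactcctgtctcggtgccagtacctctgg
Cdca3 (chr6:124829926-124830225, plus strand): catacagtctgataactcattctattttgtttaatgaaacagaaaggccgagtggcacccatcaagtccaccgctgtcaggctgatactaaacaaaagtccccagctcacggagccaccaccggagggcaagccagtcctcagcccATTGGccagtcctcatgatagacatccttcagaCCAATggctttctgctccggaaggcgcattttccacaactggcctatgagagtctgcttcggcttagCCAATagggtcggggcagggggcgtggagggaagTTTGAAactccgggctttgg
Ccnb2 (chr9:70421505-70421804, minus strand): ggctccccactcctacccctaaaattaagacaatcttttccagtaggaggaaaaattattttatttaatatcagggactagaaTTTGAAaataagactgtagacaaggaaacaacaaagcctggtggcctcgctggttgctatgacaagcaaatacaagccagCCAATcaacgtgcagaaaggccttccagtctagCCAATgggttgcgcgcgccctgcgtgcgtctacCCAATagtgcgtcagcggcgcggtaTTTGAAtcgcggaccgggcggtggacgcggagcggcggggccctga
Each of the 5 windows holds more than 1 CCAAT motif, and in Cdc20, Cdca3 and Ccnb2 a TTTGAA near the RefSeq start follows a CCAAT. The RefSeq start lies within 31 bases of the annotated gene start in the files for 4 of the 5, but 629 bases inside the annotated gene for Cdca3, so the Cdca3 window lies wholly within that annotation.

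Levels are given as TMM-normalised CPM (a library's counts of a gene scaled to a common library size, 1 value per library), and changes are log2 fold changes ± SE from edgeR's quasi-likelihood test with Benjamini-Hochberg adjustment over all tested genes, called at an adjusted p under 0.05. Per kilobase of exon, the highest mean levels in sham crypts were those of Cdc20, the activator of the anaphase-promoting complex (99.8 CPM per kb), Ccnb2, a B-type cyclin (82.7 CPM per kb), Ube2c, the ubiquitin-conjugating enzyme of that complex (69.7 CPM per kb), and Plk1 (49.8 CPM per kb). The lowest were Ndc80, the namesake of the outer kinetochore complex (2.26 CPM per kb), Ttk, the checkpoint kinase also called Mps1 (2.28 CPM per kb), and Kif15, a spindle motor (2.50 CPM per kb). In hepatectomy crypts Ccnb2 (68.01 CPM per kb) stood above Cdc20 (61.7 CPM per kb) and Ube2c (41.5 CPM per kb). The length used is that of all annotated exons of a gene merged, not that of its main transcript. A gene with much annotated exon sequence thus gets a lower value, and the order of genes per kilobase depends in part on the annotation.

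Hepatectomy crypts were compared with sham crypts, which asks what an operation on the liver changes in the crypts. The mitosis genes fell together. Of the 54, 53 were lower after hepatectomy and none was higher, against 18.3% of the 18207 tested genes called lower and 19.2% called higher (37.5% in either direction). The median change of the 54 was -0.62, against 0.01 over all genes, and single genes ranged from -1.48 to -0.17. The change was moderate, with only Depdc1b and Anln at least 2-fold lower. These are bulk samples, so fewer dividing cells and less RNA per dividing cell cannot be told apart. Where libraries of compared groups or days are said below not to overlap, the share over all tested genes was not counted. Such separation is common with few libraries a group and is given as description only. Hepatectomy crypts and sham IEC, for example, were separated for 33.4% of all tested genes in each direction.

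**Figure D1:**
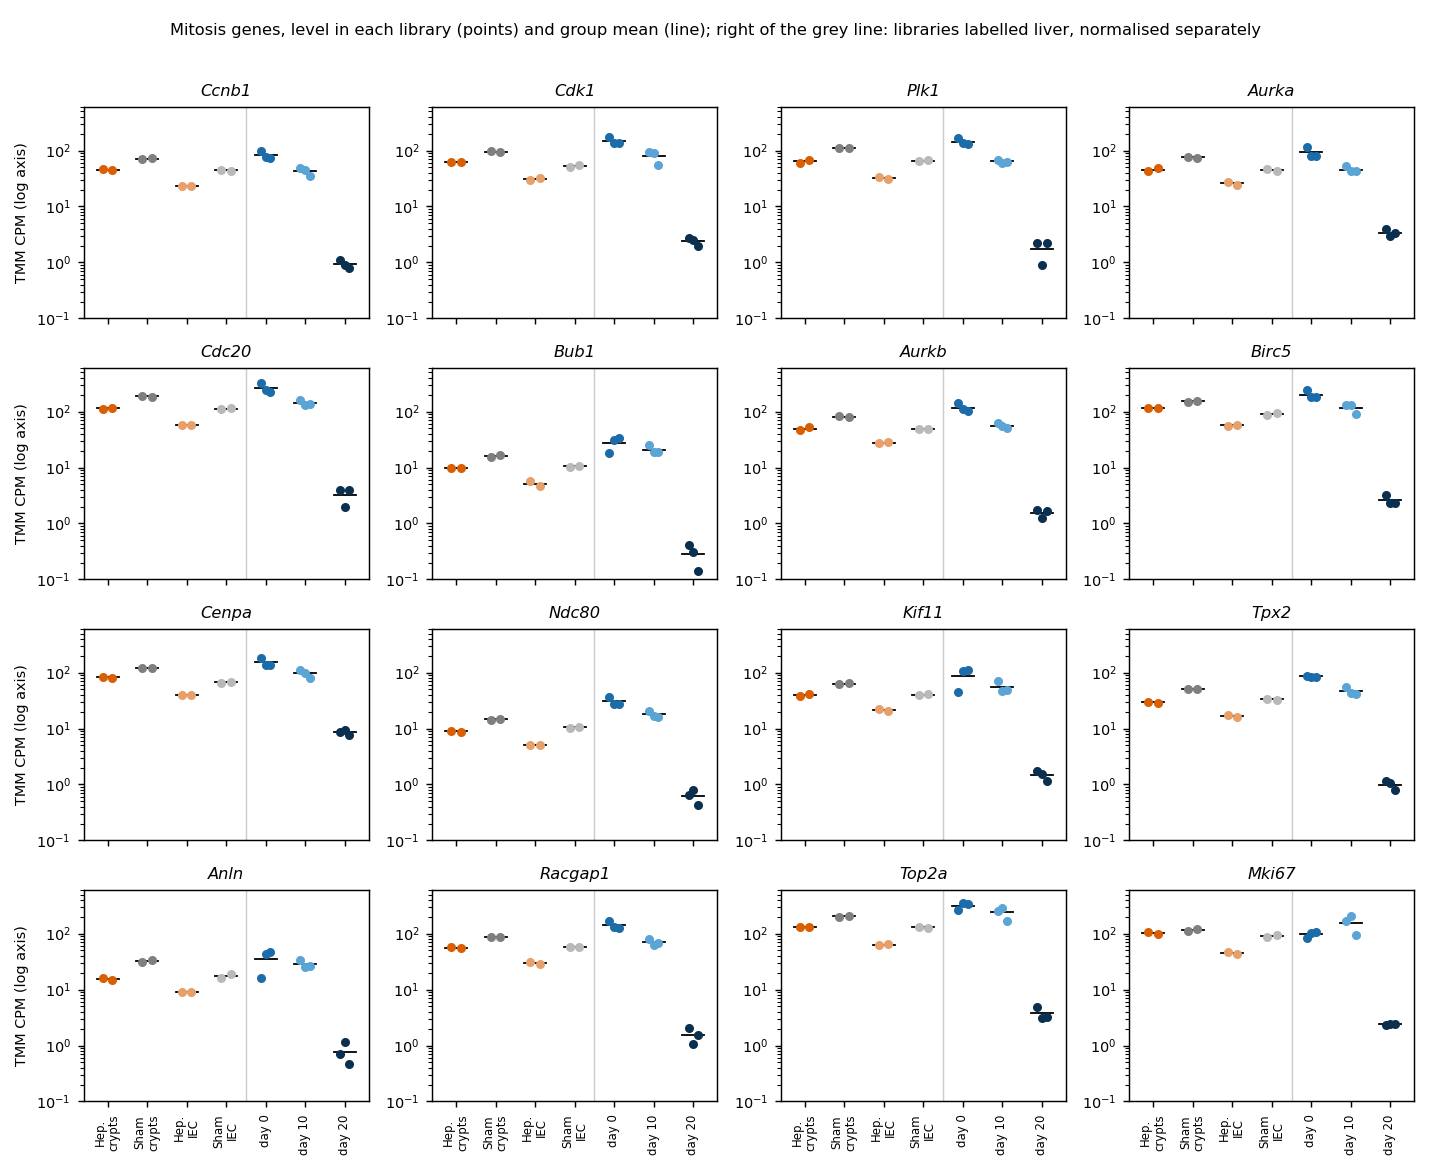
TMM-normalised CPM (log axis) of 16 mitosis genes in each of the 17 libraries, as points, with the mean of each group as a line; intestinal and liver-labelled libraries were normalised separately. In the intestine the sham crypt points lie highest and the hepatectomy IEC points lowest in all 16 panels, and the day 20 points lie below those of every other day.

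All 9 genes of mitotic entry were lower in hepatectomy crypts, with a median change of -0.61. Ccnb1, cyclin B1, stood at 47.4 and 44.2 CPM in hepatectomy crypts and 70.04 and 72.2 CPM in sham crypts (log2 fold change -0.64 ± 0.06, adjusted p = 4.74e-06). Cdk1, its kinase partner, stood at 62.4 and 61.4 CPM in hepatectomy crypts and 97.8 and 92.3 CPM in sham crypts (log2 fold change -0.62 ± 0.06, adjusted p = 8.6e-06). For both genes every hepatectomy library was below every sham library. Ccna2, cyclin A2, had the smallest p of the subgroup, with 94.3 ± 7.8 CPM in hepatectomy crypts and 149 ± 0.19 CPM in sham crypts (SD, n = 2 each; log2 fold change -0.66 ± 0.06, adjusted p = 3.89e-06). Depdc1b, a DEP and RhoGAP domain protein, had the largest fall of all 54, with 3.87 ± 1.0 CPM in hepatectomy crypts and 10.9 ± 0.16 CPM in sham crypts (SD, n = 2 each; log2 fold change -1.48 ± 0.15, adjusted p = 1.29e-05). The smallest fitted falls of the subgroup were those of Ccnb2 (log2 fold change -0.28 ± 0.06) and Foxm1, the transcription factor that drives many of these genes (log2 fold change -0.39 ± 0.08).

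The 3 spindle-building kinases were all lower, with a median of -0.72. Plk1, the Polo kinase of centrosome maturation and kinetochores, stood at 60.5 and 67.7 CPM in hepatectomy crypts and 110.2 and 109 CPM in sham crypts (log2 fold change -0.77 ± 0.06, adjusted p = 1.71e-06). Aurka, the centrosomal Aurora A kinase, stood at 42.6 and 48.5 CPM in hepatectomy crypts and 77.6 and 73.2 CPM in sham crypts (log2 fold change -0.72 ± 0.08, adjusted p = 1.55e-05). The libraries of the groups did not overlap for either kinase. Plk4, the kinase of centriole duplication, had a log2 fold change of -0.63 ± 0.09.

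All 9 genes of the spindle checkpoint and anaphase were lower, with a median of -0.67. Cdc20 stood at 113 and 118 CPM in hepatectomy crypts and 190.3 and 183 CPM in sham crypts (log2 fold change -0.69 ± 0.05, adjusted p = 4.52e-07), the smallest adjusted p among the 54. The checkpoint kinase gene Bub1 stood at 9.78 and 9.78 CPM in hepatectomy crypts and 15.3 and 17.03 CPM in sham crypts (log2 fold change -0.73 ± 0.10, adjusted p = 0.000176). Both genes were lower in each hepatectomy library. The smallest fall in this subgroup was that of Bub3 (log2 fold change -0.41 ± 0.05), a checkpoint protein also used outside mitosis, and Pttg1, which encodes securin, the inhibitor of separase, had a log2 fold change of -0.67 ± 0.07.

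All 4 genes of the chromosomal passenger complex, which corrects wrong attachments and then drives cytokinesis, were lower, with a median of -0.62. Its kinase gene Aurkb stood at 46.9 and 52.1 CPM in hepatectomy crypts and 82.4 and 80.3 CPM in sham crypts (log2 fold change -0.71 ± 0.06, adjusted p = 3.03e-06). Birc5, which encodes survivin, stood at 116 and 114 CPM in hepatectomy crypts and 148 and 157 CPM in sham crypts (log2 fold change -0.40 ± 0.05, adjusted p = 7.08e-05). The groups did not overlap for either gene, and the fall of Birc5 was the smallest of the 4.

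All 8 genes of the centromere and kinetochore were lower, with a median of -0.51. Cenpa, the histone H3 variant that marks centromeres, stood at 83.4 and 80.7 CPM in hepatectomy crypts and 119 and 119 CPM in sham crypts (log2 fold change -0.53 ± 0.05, adjusted p = 6.11e-06). Ndc80 stood at 9.05 and 8.78 CPM in hepatectomy crypts and 14.3 and 15.1 CPM in sham crypts (log2 fold change -0.72 ± 0.09, adjusted p = 5.53e-05). The large kinetochore proteins Cenpe, a motor, and Cenpf fell least, with log2 fold changes of -0.34 ± 0.09 and -0.26 ± 0.07.

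All 8 genes of spindle motors and microtubule proteins were lower, with a median of -0.60. Kif11, the motor that pushes the spindle poles apart, stood at 37.99 and 42.2 CPM in hepatectomy crypts and 61.8 and 65.01 CPM in sham crypts (log2 fold change -0.66 ± 0.07, adjusted p = 1.21e-05). Tpx2, the activator of Aurora A, stood at 29.8 and 29.00 CPM in hepatectomy crypts and 50.6 and 50.02 CPM in sham crypts (log2 fold change -0.78 ± 0.06, adjusted p = 1.54e-06). Both were lower in every hepatectomy library. Kif15 fell least (-0.28 ± 0.09).

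The 7 cytokinesis genes had the largest median fall, -0.77, and all were lower. Anln, which encodes the cleavage-furrow protein anillin, stood at 16.4 and 14.9 CPM in hepatectomy crypts and 30.9 and 33.4 CPM in sham crypts (log2 fold change -1.04 ± 0.09, adjusted p = 2.61e-06). Racgap1, a subunit of centralspindlin, stood at 56.8 and 56.1 CPM in hepatectomy crypts and 87.6 and 85.9 CPM in sham crypts (log2 fold change -0.62 ± 0.05, adjusted p = 3.68e-06). The groups did not overlap for either gene. Kif20a, a motor of the central spindle, stood at 26.8 ± 0.74 CPM in hepatectomy crypts and 51.9 ± 0.022 CPM in sham crypts (SD, n = 2 each; log2 fold change -0.96 ± 0.07, adjusted p = 7.14e-07).

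Of the 6 condensin and mitotic chromosome genes 5 were lower, with a median of -0.51. Top2a, topoisomerase II alpha, stood at 134 and 132 CPM in hepatectomy crypts and 202 and 205 CPM in sham crypts (log2 fold change -0.62 ± 0.05, adjusted p = 8.74e-07). Mki67, whose product Ki-67 coats mitotic chromosomes and is the usual marker of cycling cells, was the only 1 of the 54 that did not pass the test. It stood at 105 and 100.1 CPM in hepatectomy crypts and 110.0 and 120.1 CPM in sham crypts (log2 fold change -0.17 ± 0.06, adjusted p = 0.0564). Its hepatectomy libraries lay just below its sham libraries, and its adjusted p was 0.00719 when no filter on low counts was used and 0.0426 to 0.0487 when any 1 IEC library was left out. With any 1 crypt library left out it was 0.0551 to 0.373, the highest without sham crypts replicate 2, where the log2 fold change was -0.10, and with DESeq2 it was 0.16.

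**Figure D2:**
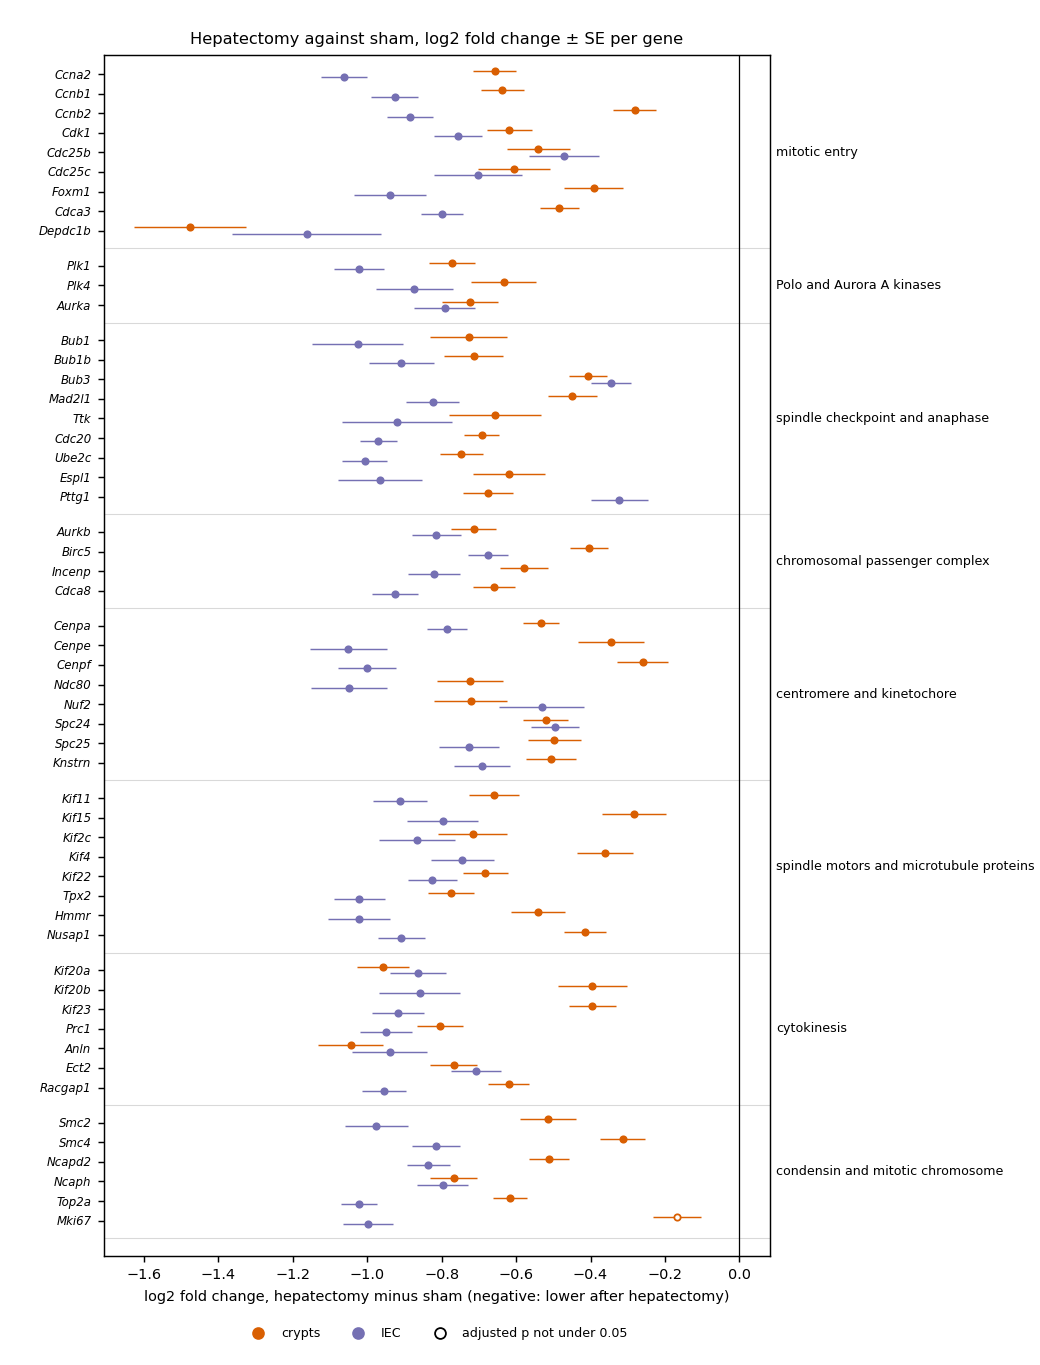
Log2 fold change of each of the 54 genes, hepatectomy minus sham, in crypts (orange) and IEC (purple), grouped by role; bars are the SE and an open symbol marks an adjusted p of 0.05 or more. All points lie below 0 and the only open symbol is Mki67 in crypts.

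Hepatectomy IEC were compared with sham IEC in the same way. All 54 genes were lower after hepatectomy, against 18.3% of all tested genes called lower and 19.5% called higher (37.8% in either direction). The median change was -0.88, against 0.02 over all genes, with a range from -1.16 to -0.32, and 11 genes were at least 2-fold lower. The subgroup medians lay closer together than in crypts, between -0.92 for cytokinesis and for the checkpoint and anaphase genes and -0.76 for the centromere and kinetochore.

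Among the genes of mitotic entry in IEC, Ccnb1 stood at 22.9 and 23.4 CPM in hepatectomy IEC and 44.7 and 43.3 CPM in sham IEC (log2 fold change -0.93 ± 0.06, adjusted p = 2.46e-07). Cdk1 stood at 29.9 and 32.9 CPM in hepatectomy IEC and 51.7 and 54.3 CPM in sham IEC (log2 fold change -0.76 ± 0.06, adjusted p = 1.84e-06). Ccna2 had 49.3 ± 0.76 CPM in hepatectomy IEC and 103 ± 1.6 CPM in sham IEC (SD, n = 2 each; log2 fold change -1.06 ± 0.06, adjusted p = 5.64e-08). The libraries of the groups did not overlap for any of the 3. Among the kinases, Plk1 stood at 33.4 and 31.6 CPM in hepatectomy IEC and 64.5 and 67.5 CPM in sham IEC (log2 fold change -1.02 ± 0.07, adjusted p = 1.71e-07). Aurka stood at 27.1 and 24.5 CPM in hepatectomy IEC and 46.6 and 42.9 CPM in sham IEC (log2 fold change -0.79 ± 0.08, adjusted p = 9.7e-06). Aurka, too, was lower in both hepatectomy libraries.

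At the checkpoint, Cdc20 stood at 58.2 and 57.7 CPM in hepatectomy IEC and 113 and 114 CPM in sham IEC (log2 fold change -0.97 ± 0.05, adjusted p = 2.32e-08). Bub1 stood at 5.72 and 4.61 CPM in hepatectomy IEC and 10.3 and 10.8 CPM in sham IEC (log2 fold change -1.03 ± 0.12, adjusted p = 3.22e-05). Securin's gene Pttg1 had the smallest fall of the 54 in IEC, with 15.5 ± 0.22 CPM in hepatectomy IEC and 19.4 ± 0.69 CPM in sham IEC (SD, n = 2 each; log2 fold change -0.32 ± 0.08, adjusted p = 0.00506). Cdc20 and Bub1 thus fell by more than Pttg1 on the fitted scale, and none of the 3 overlapped between groups. In the passenger complex, Aurkb stood at 26.9 and 28.2 CPM in hepatectomy IEC and 48.1 and 48.9 CPM in sham IEC (log2 fold change -0.81 ± 0.07, adjusted p = 1.16e-06). Birc5 stood at 56.2 and 57.2 CPM in hepatectomy IEC and 88.4 and 92.9 CPM in sham IEC (log2 fold change -0.68 ± 0.05, adjusted p = 9.04e-07). Cdca8, borealin, had a log2 fold change of -0.93 ± 0.06, with an adjusted p of 2.17e-07.

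At the kinetochore, Cenpa stood at 39.1 and 39.7 CPM in hepatectomy IEC and 66.5 and 69.2 CPM in sham IEC (log2 fold change -0.79 ± 0.05, adjusted p = 2.35e-07). Ndc80 stood at 5.09 and 5.07 CPM in hepatectomy IEC and 10.3 and 10.7 CPM in sham IEC (log2 fold change -1.05 ± 0.10, adjusted p = 6.12e-06). On the spindle, Kif11 stood at 22.3 and 20.8 CPM in hepatectomy IEC and 39.9 and 41.3 CPM in sham IEC (log2 fold change -0.91 ± 0.07, adjusted p = 1.02e-06). All of these were lower in each hepatectomy library. Tpx2 stood at 17.1 and 16.04 CPM in hepatectomy IEC and 34.4 and 33.03 CPM in sham IEC (log2 fold change -1.02 ± 0.07, adjusted p = 1.99e-07).

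In cytokinesis, Anln stood at 9.20 and 9.18 CPM in hepatectomy IEC and 16.3 and 18.95 CPM in sham IEC (log2 fold change -0.94 ± 0.10, adjusted p = 1.3e-05). Racgap1 stood at 30.6 and 28.4 CPM in hepatectomy IEC and 57.6 and 56.8 CPM in sham IEC (log2 fold change -0.95 ± 0.06, adjusted p = 1e-07). Neither gene's groups overlapped. Among the chromosome proteins, Top2a stood at 62.3 and 64.6 CPM in hepatectomy IEC and 131 and 127 CPM in sham IEC (log2 fold change -1.02 ± 0.05, adjusted p = 9.68e-09), which was the smallest adjusted p of the 54. Mki67 stood at 46.5 and 42.9 CPM in hepatectomy IEC and 85.7 and 92.99 CPM in sham IEC (log2 fold change -1.00 ± 0.07, adjusted p = 2.31e-07). Mki67, not called in crypts, passed the test in IEC.

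The difference between the effects was tested as an interaction, crypts minus IEC, in which a positive value means a smaller fall in crypts. It was called for 25 genes with the smaller fall in crypts and for 1 gene, Pttg1, with the larger fall in crypts, against 9.15% of all tested genes with a positive and 10.1% with a negative called difference (19.2% in either direction). For the other 28 genes it was not called, and over the 54 the median difference was 0.26, against -0.00 over all genes. The largest differences were those of Mki67 (0.83 ± 0.09, adjusted p = 9.05e-05), Cenpf (0.74 ± 0.10, adjusted p = 0.000471), Cenpe (0.71 ± 0.13, adjusted p = 0.00333) and Ccnb2 (0.60 ± 0.08, adjusted p = 0.000461). Of the condensin and chromosome genes 5 of 6 were called, and of the Polo and Aurora A kinases none of 3. The count is sensitive to single libraries: it was 15 without sham IEC replicate 2 and 17 to 23 without any 1 of the others, and Pttg1 was called without hepatectomy crypts replicate 1 and in no other fit that left out a library. Of the 26 genes 12 were called under all 13 alternatives, namely Ccna2, Ccnb2, Foxm1, Cenpe, Cenpf, Hmmr, Nusap1, Kif23, Smc2, Smc4, Top2a and Mki67. Cdca8 lost its call in 10 of the 13, Pttg1 in 9, Ccnb1, Ube2c, Kif4 and Kif20b in 8 each and Cenpa in 7.

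Within a subgroup some members were called in this test and others were not. Genes were not tested against each other. A called and an uncalled value can be close, such as 0.27 for Birc5 and 0.24 for Incenp. In mitotic entry, Ccnb2 differed between the fractions but Cdk1 was not called (0.14 ± 0.09, adjusted p = 0.314). At the checkpoint, Cdc20 differed (0.28 ± 0.07, adjusted p = 0.0151), Bub3 was not called (-0.06 ± 0.07, adjusted p = 0.614), and Pttg1 had the opposite sign (-0.35 ± 0.10, adjusted p = 0.0303). In the passenger complex, Birc5 differed (0.27 ± 0.07, adjusted p = 0.023), while Aurkb (0.10 ± 0.09, adjusted p = 0.489) and Incenp (0.24 ± 0.09, adjusted p = 0.0981) were not called. On the spindle, Nusap1, a microtubule-bundling protein, differed (0.49 ± 0.09, adjusted p = 0.00185) and Kif22, a chromosome-arm motor, was not called (0.14 ± 0.09, adjusted p = 0.304). In cytokinesis, Kif23, the motor subunit of centralspindlin, differed (0.52 ± 0.09, adjusted p = 0.00243). The values for Plk1 (0.25 ± 0.09, adjusted p = 0.0762), Aurka (0.07 ± 0.11, adjusted p = 0.727) and Spc24, a kinetochore subunit (-0.02 ± 0.09, adjusted p = 0.885), were not called either.

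**Figure D3:**
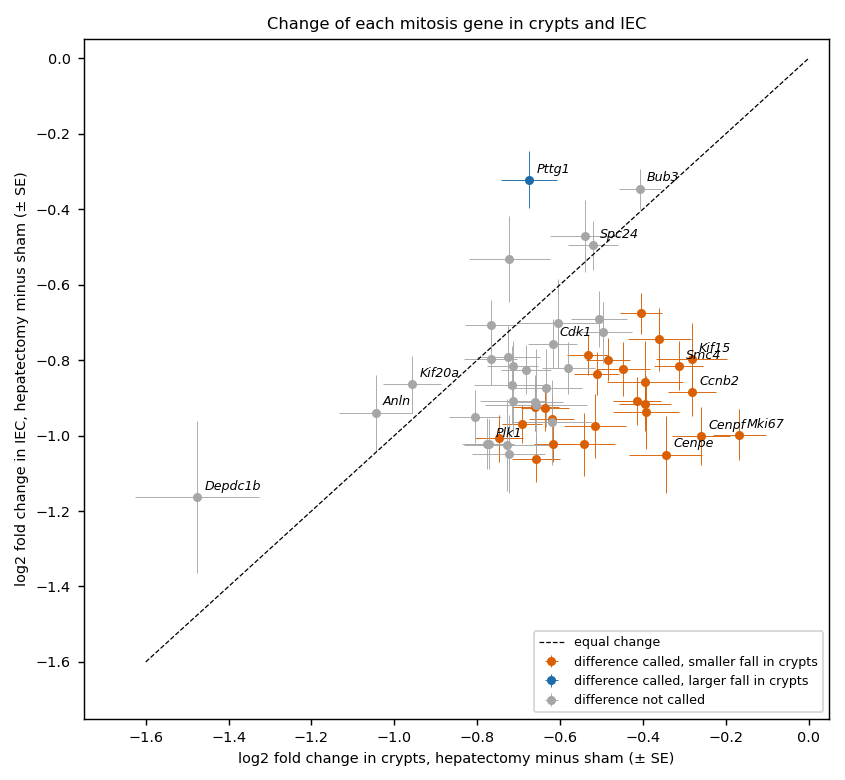
Log2 fold change of each gene, hepatectomy minus sham, in crypts (horizontal) and in IEC (vertical), with SE bars; orange and blue mark genes whose change differed between the fractions and the dashed line marks equal change. Of the 54 points 45 lie below the line, with Mki67, Cenpf and Cenpe farthest from it, and Pttg1 is the only blue point.

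Crypts were also set against IEC within each operation; these comparisons share libraries with those above. After hepatectomy all 54 genes were higher in crypts, with a median of 0.90, against 26.3% of all tested genes called higher (51.9% in either direction). In sham all 54 were higher in crypts too, with a median of 0.61, against 19.3% called higher (38.6% in either direction). Top2a had a log2 fold change, crypts minus IEC, of 1.06 ± 0.05 after hepatectomy and 0.66 ± 0.05 in sham. Mki67 had 1.20 ± 0.07 after hepatectomy and 0.37 ± 0.06 in sham, and Cdca3, a trigger of Wee1 degradation, had 1.07 ± 0.06 after hepatectomy and 0.76 ± 0.05 in sham. The smallest difference in sham was that of Cenpf (0.35 ± 0.07) and the smallest after hepatectomy that of Bub3 (0.37 ± 0.05).

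All 54 genes shared 1 order of the 4 intestinal groups at its ends: both sham crypt libraries were highest and both hepatectomy IEC libraries lowest, without overlap. The same held for 11.8% of all tested genes. Between these ends, hepatectomy crypts were higher than sham IEC without overlap for 19 genes and lower without overlap for 10, against 33.4% of all tested genes in each direction, and for 25 genes the libraries overlapped. The 19 are near that background share. The ratio of the group means, hepatectomy crypts over sham IEC, had a median of 1.02 and ran from 0.774 for Kif20a to 1.35 for Foxm1.

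The libraries labelled liver were compared between the days of DSS. Day 10 against day 0 showed a moderate fall of most members. Of the 54, 37 were lower at day 10, 1 was higher and 16 were not called, against 18.8% of all tested genes called lower and 24.7% called higher (43.6% in either direction). The median change was -0.74, against 0.10 over all genes. Without day 10 replicate 3 the count was 36 lower and 1 higher, Knstrn losing its call. In a fit of only these days, 2136 of all tested genes were called higher and 3389 lower at day 10, against 4129 higher and 3146 lower with the day 20 libraries in the fit. All 3 Polo and Aurora A kinase genes and all 4 passenger complex genes were lower, as were 8 of 9 genes of mitotic entry, 6 of 9 of the checkpoint and anaphase, 6 of 8 of the kinetochore, 4 of 8 of the spindle, 4 of 7 of cytokinesis and 2 of 6 of condensin and the mitotic chromosome.

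In the order day 0, day 10 and day 20, Ccnb1 stood at 97.8, 77.4 and 74.5 CPM at day 0, 48.7, 44.7 and 34.9 CPM at day 10 and 1.10, 0.890 and 0.792 CPM at day 20. Its change at day 10 was called (log2 fold change -0.96 ± 0.17, adjusted p = 0.0024). The days did not overlap. Cdk1 stood at 176, 134 and 135 CPM at day 0, 93.6, 90.4 and 56.2 CPM at day 10 and 2.69, 2.48 and 1.98 CPM at day 20 (log2 fold change -0.89 ± 0.20, adjusted p = 0.00648 for day 10 against day 0). Plk1 stood at 170.5, 135 and 129 CPM at day 0, 68.5, 61.2 and 62.9 CPM at day 10 and 2.21, 0.890 and 2.20 CPM at day 20 (log2 fold change -1.17 ± 0.22, adjusted p = 0.0032 for day 10 against day 0). Aurka stood at 117, 81.4 and 79.8 CPM at day 0, 52.1, 42.3 and 42.3 CPM at day 10 and 3.90, 2.98 and 3.39 CPM at day 20 (log2 fold change -1.02 ± 0.18, adjusted p = 0.00222 for day 10 against day 0). In each of these kinase genes every day 10 library was below every day 0 library, and the day 20 libraries were lowest.

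Cdc20 stood at 325, 248 and 228 CPM at day 0, 164, 132 and 138 CPM at day 10 and 3.90, 1.97 and 3.93 CPM at day 20 (log2 fold change -0.89 ± 0.22, adjusted p = 0.00955 for day 10 against day 0). Aurkb stood at 140.4, 112 and 103 CPM at day 0, 63.7, 54.3 and 50.1 CPM at day 10 and 1.77, 1.24 and 1.66 CPM at day 20 (log2 fold change -1.08 ± 0.17, adjusted p = 0.0013 for day 10 against day 0). Birc5 stood at 242, 180.2 and 180.2 CPM at day 0, 132, 133 and 89.4 CPM at day 10 and 3.27, 2.32 and 2.30 CPM at day 20 (log2 fold change -0.77 ± 0.20, adjusted p = 0.0106 for day 10 against day 0). The days did not overlap for these 3 genes. Cenpa stood at 185, 139.6 and 136 CPM at day 0, 111, 99.6 and 81.4 CPM at day 10 and 8.65, 9.28 and 7.74 CPM at day 20 (log2 fold change -0.66 ± 0.17, adjusted p = 0.0104 for day 10 against day 0). Ndc80 stood at 37.1, 27.3 and 27.4 CPM at day 0, 20.7, 17.03 and 15.9 CPM at day 10 and 0.662, 0.812 and 0.432 CPM at day 20 (log2 fold change -0.77 ± 0.20, adjusted p = 0.0109 for day 10 against day 0). Both kinetochore genes again stepped down from day to day without overlap.

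Tpx2 stood at 87.7, 84.2 and 84.1 CPM at day 0, 55.03, 43.4 and 41.6 CPM at day 10 and 1.14, 1.04 and 0.792 CPM at day 20 (log2 fold change -0.87 ± 0.15, adjusted p = 0.00229 for day 10 against day 0). Racgap1 stood at 168, 134 and 128 CPM at day 0, 80.1, 63.4 and 68.6 CPM at day 10 and 2.10, 1.04 and 1.55 CPM at day 20 (log2 fold change -1.02 ± 0.19, adjusted p = 0.00317 for day 10 against day 0). Neither gene overlapped between days. Among the genes with the smallest p of their subgroups, Mad2l1, the checkpoint protein that holds Cdc20, had a log2 fold change of -0.90 ± 0.18, Nuf2, the partner of Ndc80, -0.86 ± 0.20, and Ncaph, a condensin subunit, -0.95 ± 0.16.

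For some genes a single day 0 library decided the call. The 8 genes that were low in day 0 replicate 1 were all uncalled with every library in the fit, and 6 of the 8 were called lower at day 10 when that library was left out. The genes were picked for their low value in that library, so the direction of this shift follows from the choice. Of all tested genes, 3572 were called lower and 2323 higher without day 0 replicate 1, against 3146 lower and 4129 higher with it. Bub1 stood at 17.8, 31.05 and 33.9 CPM at day 0, 24.9, 18.7 and 19.2 CPM at day 10 and 0.405, 0.309 and 0.144 CPM at day 20 (log2 fold change -0.40 ± 0.25, adjusted p = 0.205 for day 10 against day 0), and its adjusted p was 0.0248 without day 0 replicate 1. Kif11 stood at 45.9, 106 and 109 CPM at day 0, 70.6, 47.6 and 49.4 CPM at day 10 and 1.73, 1.55 and 1.15 CPM at day 20 (log2 fold change -0.64 ± 0.28, adjusted p = 0.0786 for day 10 against day 0), and its log2 fold change was -1.05 without that library, with an adjusted p of 0.00569. Anln stood at 15.9, 43.3 and 46.6 CPM at day 0, 34.4, 25.1 and 26.6 CPM at day 10 and 0.699, 1.16 and 0.468 CPM at day 20 (log2 fold change -0.30 ± 0.33, adjusted p = 0.484 for day 10 against day 0), and its adjusted p without that library was 0.0302. In these 3 genes day 0 replicate 1 lay below every day 10 library and the other day 0 libraries lay above them all. Ect2, the exchange factor that activates RhoA at the furrow, had a log2 fold change of -0.65 ± 0.39 with all libraries and -1.18 without day 0 replicate 1, and Ncapd2, a condensin subunit, had -0.37 ± 0.23 with all libraries and -0.76 without it. Foxm1 and Kif4 stayed uncalled without it. Without that library Cdc25c, a phosphatase that activates Cdk1 (adjusted p = 0.0504), Knstrn, a kinetochore protein (0.0552), and Smc2, a condensin subunit (0.0567), were no longer called lower, and the count called lower was 40, against 37.

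Mki67 was the only gene called higher at day 10. It stood at 83.1, 103 and 108 CPM at day 0, 168, 209 and 94.5 CPM at day 10 and 2.32, 2.48 and 2.45 CPM at day 20 (log2 fold change 0.68 ± 0.23, adjusted p = 0.032 for day 10 against day 0). Day 10 replicate 3 lay among the day 0 libraries and the other 2 day 10 libraries above them. The call did not hold when any 1 library other than day 10 replicate 3 was left out (adjusted p of 0.053 to 0.198), nor in the fit of only the groups compared (0.13) or with no filter (0.077). Top2a stood at 264, 347 and 345 CPM at day 0, 259, 290.3 and 169.6 CPM at day 10 and 4.93, 3.13 and 3.28 CPM at day 20 (log2 fold change -0.41 ± 0.22, adjusted p = 0.148 for day 10 against day 0), and its day 0 and day 10 libraries overlapped. Cenpf (0.09 ± 0.21, adjusted p = 0.747), Cenpe (-0.17 ± 0.25, adjusted p = 0.598), Smc4 (-0.38 ± 0.19, adjusted p = 0.123) and Pttg1 (-0.41 ± 0.18, adjusted p = 0.0729) were not called either.

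**Figure D4:**
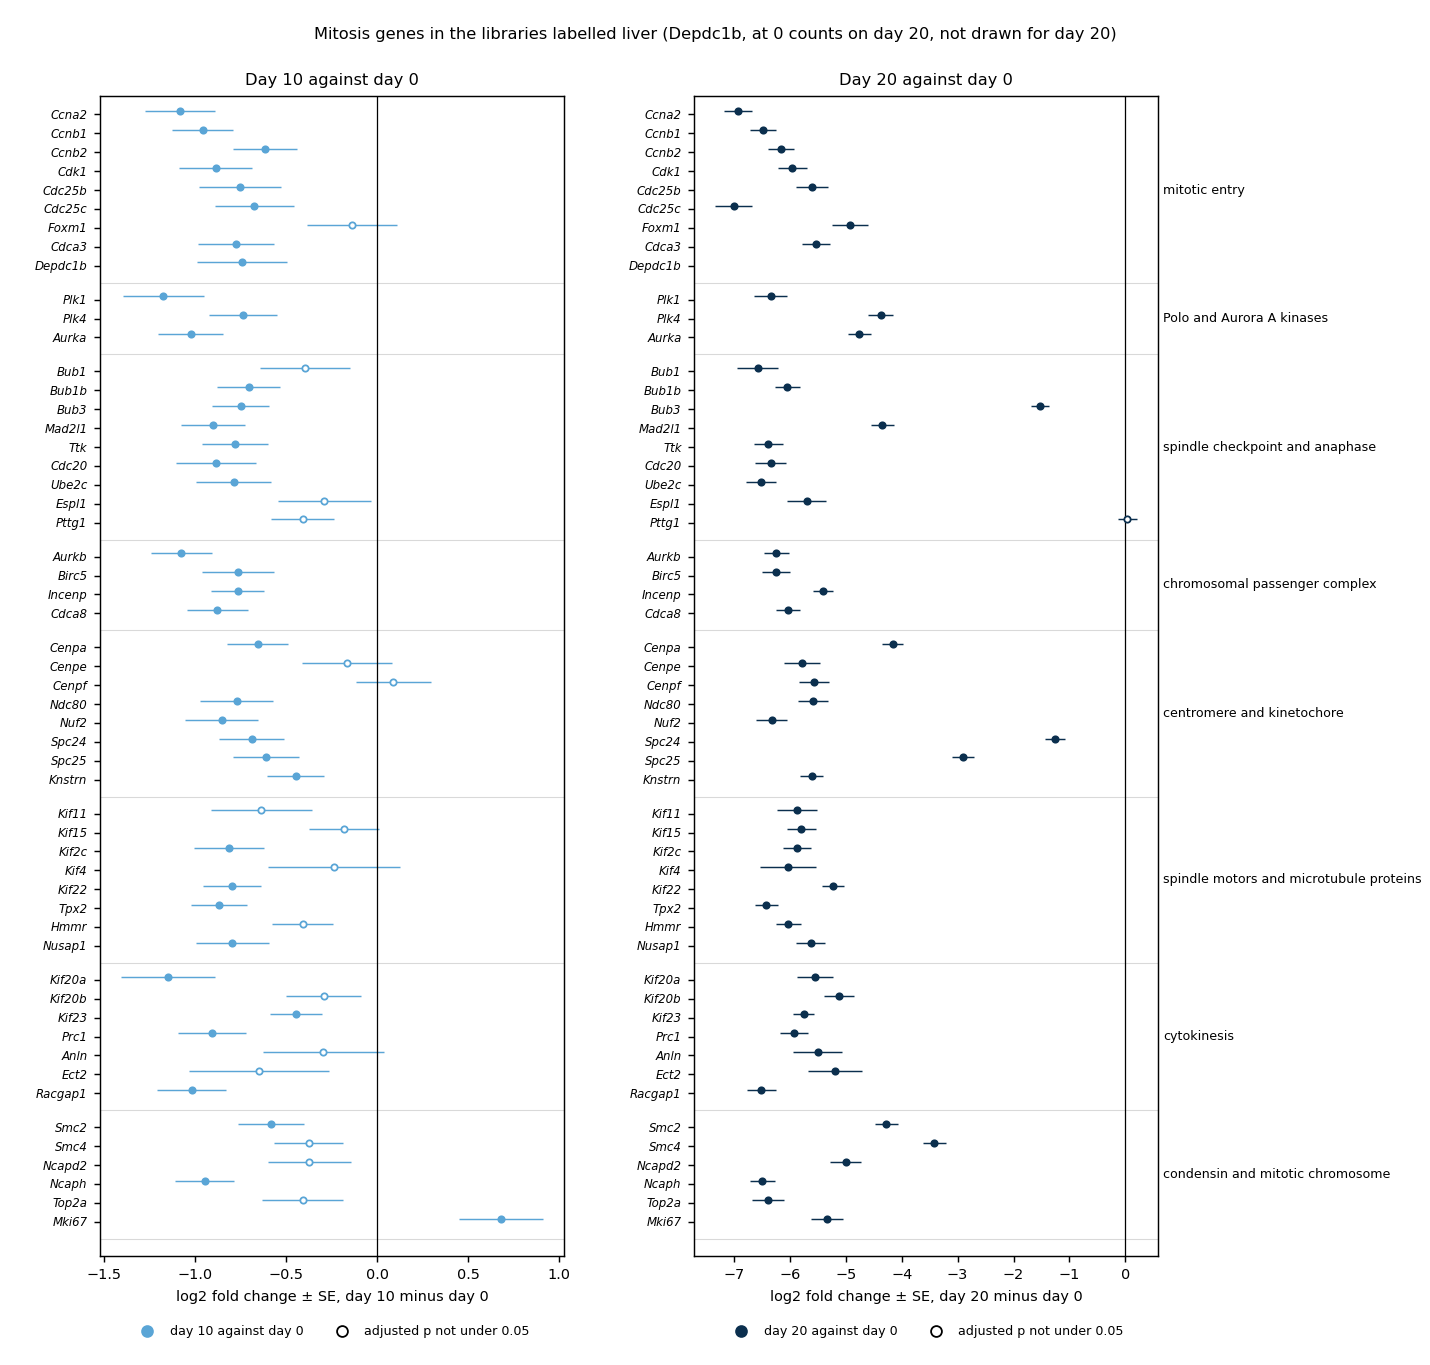
Log2 fold change of each gene in the libraries labelled liver, day 10 minus day 0 (left) and day 20 minus day 0 (right), on different scales, with SE bars; open symbols mark an adjusted p of 0.05 or more. At day 10 the points lie below 0 apart from Mki67 and the open point of Cenpf, and at day 20 they scatter about the median of -5.77 with Pttg1, Spc24 and Bub3 nearest to 0; Depdc1b, with 0 counts at day 20, is not drawn on the right.

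At day 20 nearly all members were far lower. Against day 0, 53 of the 54 were lower and Pttg1 was not called, against 38.1% of all tested genes called lower and 33.3% called higher (71.4% in either direction), with a median of -5.77, against -0.16 over all genes. Against day 10, 53 were lower and Pttg1 was called higher, against 40.3% called lower and 30.8% called higher (71.1% in either direction), with a median of -5.17, against -0.21 over all genes. At day 20 13 of the 14 hepatocyte markers were higher than at day 0 and 8 of the 10 stem cell markers were lower, with the sums given above, and their part in these differences was not tested. Ncaph had a log2 fold change of -6.50 ± 0.22 against day 0 and -5.55 ± 0.22 against day 10. Bub1b, a checkpoint kinase paralogue, had -6.05 ± 0.23 against day 0 and -5.34 ± 0.22 against day 10. Depdc1b had 0 counts in each day 20 library. Taking 3 counts in each library as the limit of what a 0 can hide, Depdc1b was at least 58.2-fold lower than at day 0 and at least 34.8-fold lower than at day 10. With Depdc1b at that bound the medians were -5.77 and -5.17.

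The levels of Pttg1, Spc24 and Bub3 stood out at day 20. Pttg1 (chr11:43420250-43426251, minus strand, mm10) stood at 47.7, 35.4 and 34.2 CPM at day 0, 29.7, 34.6 and 23.96 CPM at day 10 and 37.3, 41.00 and 42.3 CPM at day 20 (log2 fold change 0.04 ± 0.17, adjusted p = 0.847 for day 20 against day 0; log2 fold change 0.45 ± 0.18, adjusted p = 0.0347 for day 20 against day 10). Its day 20 libraries lay among those of day 0 and above those of day 10, and the call against day 10 did not hold without day 10 replicate 3, day 20 replicate 2 or day 20 replicate 3. Spc24 stood at 101, 75.8 and 69.5 CPM at day 0, 59.99, 52.4 and 40.2 CPM at day 10 and 33.6, 34.3 and 35.04 CPM at day 20 (log2 fold change -1.26 ± 0.18, adjusted p = 3.39e-05 for day 20 against day 0). Bub3 stood at 196, 151 and 142 CPM at day 0, 109.7, 92.6 and 88.6 CPM at day 10 and 57.98, 53.8 and 58.99 CPM at day 20 (log2 fold change -1.52 ± 0.16, adjusted p = 1.78e-06 for day 20 against day 0). Both were lowest at day 20, without overlap with either other day. Per kilobase of merged exon, with the same dependence on annotation, the mean day 20 levels of Pttg1, Spc24 and Bub3 were 20.1, 13.3 and 8.13 CPM per kb. The next gene, Smc4, had 2.33 CPM per kb. Spc25, the direct partner of Spc24, stood at 5.59 ± 0.73 CPM at day 20 and 41.95 ± 8.4 CPM at day 0 (SD, n = 3 each).

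Other genes of the cell cycle moved in the same directions in the intestine. The counts below stand against 18.3% of all tested genes called lower and 19.2% called higher after hepatectomy in crypts. In IEC these shares were 18.3% lower and 19.5% higher. Of 64 further mitosis genes, 58 were lower and none higher in hepatectomy crypts, with a median of -0.56, and 59 were lower and 1 higher in hepatectomy IEC, with a median of -0.74. Nek2, a centrosomal kinase, had 45.1 ± 2.0 CPM in hepatectomy crypts and 83.6 ± 7.1 CPM in sham crypts (SD, n = 2 each; log2 fold change -0.89 ± 0.07, adjusted p = 1.23e-06). Of 30 genes of S phase, 23 were lower and 1 higher in hepatectomy crypts, with a median of -0.40, and 26 were lower and 1 higher in hepatectomy IEC, with a median of -0.66. Rrm1, a subunit of ribonucleotide reductase, had 64.8 ± 0.40 CPM in hepatectomy crypts and 114 ± 1.3 CPM in sham crypts (SD, n = 2 each; log2 fold change -0.82 ± 0.05, adjusted p = 1.46e-07). The ratio of the summed CPM of the 54 genes to that of the S phase genes was 2.04 and 2.01 in hepatectomy crypts and 2.18 and 2.23 in sham crypts, and 1.53 and 1.55 in hepatectomy IEC and 1.80 and 1.86 in sham IEC. A list of 15 genes held core subunits of the anaphase-promoting complex, which are present through the cell cycle, and its coactivator Fzr1. Of the 15, 10 were lower in hepatectomy crypts, with a median of -0.26, and 7 in hepatectomy IEC, with a median of -0.21.

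Of 7 inhibitors of cyclin-dependent kinases 6 were tested. In hepatectomy crypts 4 of the 6 were higher and 2 were lower, with a median of 0.44. Of all tested genes 19.2% were called higher and 18.3% lower there. Cdkn1a, which encodes p21, had 137 ± 0.13 CPM in hepatectomy crypts and 101 ± 0.39 CPM in sham crypts (SD, n = 2 each; log2 fold change 0.44 ± 0.04, adjusted p = 1e-05). In IEC 1 of the 6, again Cdkn1a, was higher and 2 were lower, with a median of -0.23, against 19.5% of all tested genes called higher and 18.3% called lower. Cdkn1a had 230.0 ± 2.8 CPM in hepatectomy IEC and 176 ± 0.46 CPM in sham IEC (SD, n = 2 each; log2 fold change 0.39 ± 0.04, adjusted p = 1.82e-05).

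Markers of other cell types moved with these differences, and their part in the results was not tested. All 15 enterocyte markers were higher after hepatectomy in crypts and in IEC; their summed level was 13459 to 13562 CPM in hepatectomy crypts and 5653 to 5718 CPM in sham crypts, and 79262 to 82671 CPM in hepatectomy IEC and 31796.5 to 32213 CPM in sham IEC. Of the 10 stem cell markers none was higher after hepatectomy, 5 were lower in crypts and 7 in IEC; their sum was 1275 to 1287 CPM in hepatectomy crypts and 2051 to 2100 CPM in sham crypts, and 925.9 to 943.1 CPM in hepatectomy IEC and 1808 to 1811 CPM in sham IEC. In crypts all 8 goblet, all 7 Paneth and all 12 T and NK cell markers were lower after hepatectomy, and the T and NK sum was 36.3 to 37.3 CPM in hepatectomy crypts and 96.5 to 105.1 CPM in sham crypts. In IEC 5 of the 12 T and NK cell markers and 6 of the 7 Paneth markers were lower. The goblet sum was higher after hepatectomy in IEC, at 8743 to 9003 CPM against 7354 to 7652 CPM in sham IEC. In crypts it was 2701 to 2778 CPM after hepatectomy and 6252 to 6277 CPM in sham. Of all tested genes 19.2% were called higher and 18.3% lower after hepatectomy in crypts, and 19.5% higher and 18.3% lower in IEC. Of the fibroblast markers 4 of 7 were tested, of which 3 were higher after hepatectomy in crypts and 2 in IEC, with sums of 6.87 to 7.73 CPM in hepatectomy crypts and 0.705 to 0.989 CPM in sham crypts. In sham, crypts had all 15 enterocyte markers lower than IEC. Of the 10 stem cell markers 3 were higher and 4 lower in crypts, against 19.3% of all tested genes called higher and 19.3% called lower. The Paneth marker sum was lower in crypts than in IEC under both operations. It was 1435 to 1574 CPM in sham crypts and 3786 to 4006.5 CPM in sham IEC. After hepatectomy it was 649.5 to 651.3 CPM in crypts and 2462 to 2530 CPM in IEC.

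**Figure D5:**
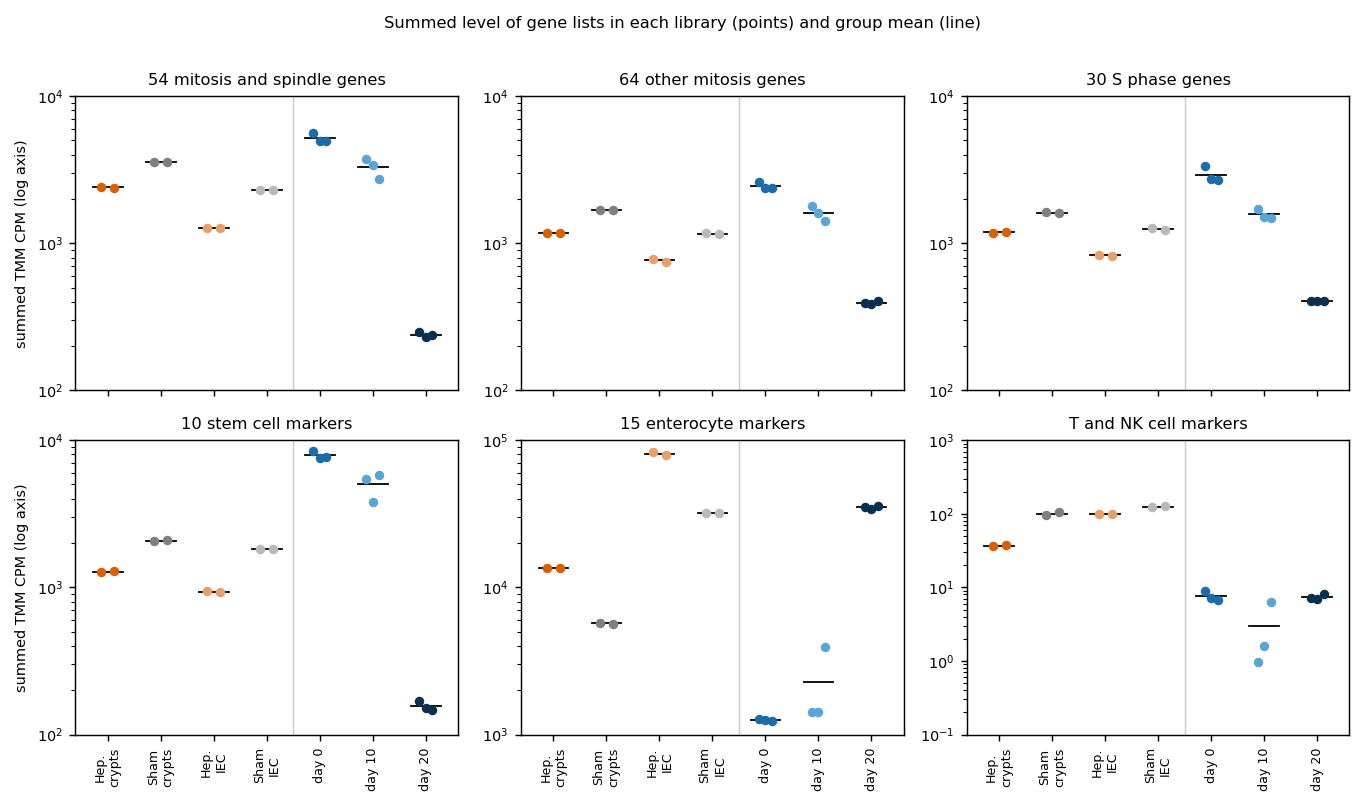
Summed TMM-normalised CPM (log axes) of the 54 genes and of 5 other lists in each library (points) with group means (lines). The mitosis and S phase sums fall together after hepatectomy in both fractions while the enterocyte sum rises, and all mitosis, S phase and stem cell sums are lowest at day 20.

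In the libraries labelled liver the other mitosis genes followed the members too. At day 10, 41 of 64 were lower than at day 0 and none was higher, with a median of -0.59, and at day 20, 63 of 64 were lower than at day 0 and 1 was higher, with a median of -5.01. Of the 30 S phase genes 27 were lower and 1 higher at day 10, with a median of -0.83, and 27 were lower and 1 higher at day 20 against day 0, with a median of -4.14. The ratio of the summed members to the summed S phase genes was 1.69 to 1.84 at day 0, 1.82 to 2.27 at day 10 and 0.572 to 0.611 at day 20. At day 10, 11 of the 15 enterocyte markers, 11 of the 14 hepatocyte markers and all 6 endothelial markers were higher than at day 0, and of the 10 stem cell markers 1 was higher and 3 were lower. Of all tested genes 24.7% were called higher and 18.8% lower at day 10. The shares at day 20 against day 0 were 33.3% higher and 38.1% lower. The enterocyte marker sums were 1425, 1429.8 and 3921 CPM at day 10, with the highest in replicate 3, and 1231 to 1279 CPM at day 0, and the hepatocyte marker sums 2566 to 4254 CPM at day 10 and 1292 to 3031 CPM at day 0. The endothelial marker sums were low on both days, at 3.51 to 12.9 CPM at day 10 and 1.62 to 2.13 CPM at day 0. The part of these cell types in the fall of the 54 genes at day 10 was not tested. Cdkn1a had 49.7 ± 12 CPM at day 10 and 29.8 ± 5.7 CPM at day 0 (SD, n = 3 each; log2 fold change 0.74 ± 0.19, adjusted p = 0.0112), and no CDK inhibitor was called lower.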

How the data were processed

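Bulk RNA was sequenced from 17 mouse samples in 7 groups. Per the submitters' processing notes, STAR and Partek were used with mm10; no versions are listed there. The authors deposited expected counts per gene symbol for the intestine, of which 36.7% are not whole and which were rounded here, and whole counts per numeric identifier for the samples labelled liver. The counting program was not given in the sources used here. Of 24594 identifiers 24570 were matched to symbols; the other 24 hold 3.93 to 22.1% of a library's counts.

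Each set was fitted with edgeR 4.0.16 in R 4.3.3 (TMM, filterByExpr with a minimum count of 10 and total of 15, quasi-likelihood test, Benjamini-Hochberg over 18207 or 16694 genes), in 8 comparisons, and was tested on simulated data; all 54 genes passed the filter. SE is the absolute log2 fold change over the square root of F. Alternatives were DESeq2 1.42.0, RLE scaling, no filter, a stricter filter (mean of at least 5 CPM, and at least 1 CPM throughout some group), a replicate block, only the groups compared, and leaving out each library. A fit of only the groups compared without day 10 replicate 3 was added after the data were seen.

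Anchor genes were given per library; otherwise the smallest p of each subgroup, exceptions and uncalled genes were named, and a few more were named after their values were seen. The members and lists were chosen with earlier results of these data known. The floor set for Depdc1b covers counting error only. The SE and SD also hold the spread among libraries.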

Additional observations from a re-analysis of the deposited data

Results flagged for a closer look

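The change after hepatectomy differed between crypts and IEC for 26 of the 54 genes by the interaction test of edgeR, against 19.2% of all tested genes, 25 with the smaller fall in crypts and 1 with the larger. The 25 fell to 15 without sham IEC replicate 2, and 14 of the 26 lost their call in at least 1 of 13 alternatives. Each value here is the log2 fold change in crypts minus that in IEC, so that a positive value is a smaller fall in crypts. In mitotic entry the differences were 0.41 for Ccna2, 0.29 for Ccnb1, 0.60 for Ccnb2, 0.55 for Foxm1 and 0.32 for Cdca3. Among checkpoint and anaphase genes they were 0.38 for Mad2l1, 0.28 for Cdc20, 0.26 for Ube2c and -0.35 for Pttg1. In the passenger complex they were 0.27 for Birc5 and 0.27 for Cdca8, and at the kinetochore 0.25 for Cenpa, 0.71 for Cenpe and 0.74 for Cenpf. On the spindle they were 0.51 for Kif15, 0.38 for Kif4, 0.48 for Hmmr and 0.49 for Nusap1, and in cytokinesis 0.46 for Kif20b, 0.52 for Kif23 and 0.33 for Racgap1. Among condensin and chromosome genes they were 0.46 for Smc2, 0.50 for Smc4, 0.32 for Ncapd2, 0.41 for Top2a and 0.83 for Mki67. The calls of Cdca8, Pttg1, Ccnb1, Ube2c, Kif4, Kif20b and Cenpa were each lost in 7 or more of the 13 alternatives.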

How the results depend on the processing

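Counts of called genes kept their direction and stayed within 1.5 times in crypts, in IEC, between crypts and IEC and for the genes lower at day 10 and day 20, under every alternative run. The interaction count of genes with a smaller fall in crypts, 25, was 15 to 23 when a library was left out, and the count with a larger fall, 1, was 0 with DESeq2, 0 with no filter and 0 to 1 when a library was left out. The count higher at day 10, 1, was 0 with no filter, 0 in the fit of only the groups compared and 0 to 1 when a library was left out; the count higher at day 20 against day 10, 1, was 0 to 1. Signs of uncalled log2 values changed for 4 interactions when a library was left out: Aurka ranged from -0.0241 to 0.176, Anln from -0.214 to 0.0024, Bub3 from -0.0981 to 0.00258 and Spc24 from -0.082 to 0.0365. They changed at day 10 for Cenpf (-0.0968 with no filter, -0.138 to 0.279 without a library) and Cenpe (0.0266 with the stricter filter, 0.0159 in the added fit, -0.408 to 0.0609 without a library), and for Pttg1 at day 20 against day 0 (-0.0623 with no filter, -0.0404 with only the groups compared, -0.116 to 0.170 without a library). The cause of these changes was not tested. Of the named genes' values under the alternatives, 2373 kept direction and call, 22 gained a call, 43 lost one and 21 changed sign.

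Deviations of same-numbered replicates from their group means had correlations of -0.0161 to 0.0280 in 12 intestinal pairs and -0.0301 to 0.0421 in 9 pairs labelled liver. With 2 libraries in a group the deviations mirror each other, so the 12 intestinal values are not independent. These correlations cannot tell whether same-numbered samples came from the same animals. With a replicate block the interaction was called for 23 and 1 genes, day 10 for 36 lower and 1 higher, and the other counts did not change. Where a fit left 1 library in a group, the pooled spread was used and the lone library was assumed to vary like the other groups. With 2 or 3 libraries a group, small differences such as that of Mki67 in crypts are at the limit of what the test can call.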
